A study of Homo sapiens with 4 samples.

Results

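Respiratory complex I was followed through 41 genes, 37 of them NDUF genes of its subunits and related proteins and 4 of them assembly factors, in MDA-231 cells that overexpressed TARBP2. Of the 41 genes, 40 could be tied to a probe of the array and 39 were detected and tested, among 10165 genes tested in all. Of these 39, 8 were higher in the TARBP2 cells, 4 were lower and 27 did not pass the test, where 28.2% of all genes tested rose and 27.1% fell. The accessory subunit NDUFB2 was 2.08-fold higher, a log2 change of 1.06 that was 0.42 relative to its chromosomal neighbours, and the other 11 changes were each smaller than 1.5-fold. The core subunits NDUFS7 and NDUFS3 were higher, while the core subunit NDUFV2 and the assembly factors NDUFAF1 and NDUFAF4 were lower.

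MDA-231, also written MDA-MB-231, is a human breast cancer line. Its cells were transiently transfected with pCMV-TARBP2, which drives TARBP2, a double-stranded RNA-binding protein and DICER1 partner, from the CMV promoter, or with pCMV-GFP as the control. Total RNA was extracted 48 hours later and biotin-labelled for an Illumina expression BeadChip, on 2 arrays per plasmid. Both groups had been through transfection and both carried a CMV-driven insert. Transient transfection leaves a mixture of cells that took up plasmid and cells that did not, and the measurement is their average. In such bulk RNA, fewer cells of a kind and less RNA per cell cannot be told apart. The labels do not state separate cultures for the 2 arrays of a group, so the spread behind each p-value may be that of technical repeats.

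Complex I, or NADH:ubiquinone oxidoreductase, is the entry point of electrons from NADH into the respiratory chain of the inner mitochondrial membrane. Its core subunits take electrons from NADH through flavin and iron-sulphur clusters to ubiquinone, and the membrane arm uses the energy to pump protons. The core subunits of the membrane arm are encoded in mitochondrial DNA and are no members of the set. Around the core sit nuclear-encoded accessory subunits, and assembly factors, which do not remain in the finished enzyme, build it from modules.

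On these arrays TARBP2 itself had log2 levels of 15.11 and 15.12 with its plasmid and 7.26 and 6.97 with GFP, 257-fold apart. Levels are log2 of background-corrected, quantile-normalised probe intensity, and levels of different probes are not compared as amounts of transcript. The share of detected probes ran from 44.1% to 45.9% per array. Of 6 genes chosen to mark this mesenchymal-like line, 5 were detected and SPARC was not. Of 6 luminal marker genes with a probe, ESR1 and PGR were not detected, ERBB2 and KRT8 were detected on all arrays, CDH1 on the GFP arrays and GATA3 on the TARBP2 arrays. The summed linear level of the line markers was 81869 and 82836 with TARBP2 and 98073 and 95699 with GFP, and that of the luminal markers was 3271 and 3210 against 3105 and 3159. The part of these markers in the results was not tested.

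The promoters of 4 genes are shown because NDUFB2, NDUFS7 and NDUFA11 had the 3 largest rises and NDUFV2 the largest fall. The sequences run from 250 bases before to 50 after the RefSeq transcription start in GRCh38.p14, on the gene's strand. Capitals mark matches, on either strand, to the letters of motifs bound by factors known for respiratory genes.
NDUFB2, chr7:140696458-140696757, plus strand: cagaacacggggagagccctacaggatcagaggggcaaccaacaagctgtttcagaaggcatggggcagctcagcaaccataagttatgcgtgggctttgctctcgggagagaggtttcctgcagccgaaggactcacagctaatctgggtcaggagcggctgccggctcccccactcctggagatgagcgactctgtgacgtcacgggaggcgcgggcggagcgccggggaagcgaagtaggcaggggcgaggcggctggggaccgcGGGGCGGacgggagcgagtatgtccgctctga
NDUFS7, chr19:1383657-1383956, plus strand: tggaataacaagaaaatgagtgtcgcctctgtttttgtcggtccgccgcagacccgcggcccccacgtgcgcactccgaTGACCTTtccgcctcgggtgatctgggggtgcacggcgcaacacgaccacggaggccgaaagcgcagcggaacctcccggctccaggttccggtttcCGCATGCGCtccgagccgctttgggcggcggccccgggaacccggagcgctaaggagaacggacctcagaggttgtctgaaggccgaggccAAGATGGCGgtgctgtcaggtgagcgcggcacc
NDUFA11, chr19:5903741-5904040, minus strand: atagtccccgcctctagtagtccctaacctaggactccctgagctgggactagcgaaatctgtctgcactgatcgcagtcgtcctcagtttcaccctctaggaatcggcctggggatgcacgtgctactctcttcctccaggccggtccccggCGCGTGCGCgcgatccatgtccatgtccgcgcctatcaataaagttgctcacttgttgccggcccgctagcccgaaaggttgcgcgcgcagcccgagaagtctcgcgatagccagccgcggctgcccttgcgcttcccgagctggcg
NDUFV2, chr18:9102449-9102748, plus strand: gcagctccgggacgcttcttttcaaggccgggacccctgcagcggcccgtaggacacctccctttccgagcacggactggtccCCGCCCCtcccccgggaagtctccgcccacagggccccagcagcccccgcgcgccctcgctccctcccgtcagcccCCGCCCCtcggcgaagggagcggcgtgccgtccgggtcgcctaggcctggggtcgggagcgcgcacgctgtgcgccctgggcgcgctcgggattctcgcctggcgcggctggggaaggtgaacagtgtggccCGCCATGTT
The NDUFB2 window held 1 GC box, GGGGCGG, which begins 18 bases after the start. That of NDUFS7 held the NRF1 motif CGCNTGCGC 74 bases before the start, the YY1 motif AANATGGCG 17 bases after the start and, on the other strand, the motif AAGGTCA of oestrogen-related receptors 171 bases before it. The NDUFA11 window held the NRF1 motif 97 bases before the start. The window of NDUFV2, the gene that fell, held the YY1 motif on the other strand 41 bases after the start and GC boxes on the other strand 167 and 91 bases before it.

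Of the 41 genes, 37 were searched, with 47 promoters from the RefSeq table. Members' promoters on chromosome 8, where NDUFB9 lies, were left out, while the count over all promoters kept that chromosome. The YY1 motif stood in 12 of these 47 promoters, those of 11 genes, and in 3.19% of all 35116 promoters of the table. Of these 11 genes, NDUFB8, NDUFS3 and NDUFS7 rose, NDUFV2 fell and NDUFS6 was not tested. The NRF1 motif stood in 10 of the 47 promoters and in 7.52% of all promoters. Of its 10 genes NDUFA11 and NDUFS7 rose, and NDUFB4 and NDUFS6 were not tested. The ETS motif CCGGAAG, bound by GABPA, stood in 6 of the 47 promoters and in 10.26% of all. Its carriers NDUFS3, NDUFA13 and NDUFAF4 changed in different directions, and its carriers NDUFA1, NDUFB7 and NDUFS1 did not pass. The receptor motif AAGGTCA was in 5 of the 47 (3.92% of all promoters), and the GC box in 16 (30.82%). A match describes the letters of the window and is no evidence of binding.

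As a whole, the members shifted little. Of 10165 genes, 55.4% passed limma's test at an adjusted p under 0.05 (Benjamini-Hochberg over all genes), 28.2% upward and 27.1% downward. Against that background 12 of the 39 members passed, which is 30.8%, with 20.5% upward and 10.3% downward. At the further limit of at least 1.5-fold, 22.6% of all genes passed (11.9% upward, 10.6% downward), and 1 member, NDUFB2. The median log2 change of the members was 0.058, and that of all genes was 0.00064. Their median absolute change was 0.20, against 0.30 over all genes. In 29 of 39 members the 2 TARBP2 arrays lay both above or both below the 2 GFP arrays, 19 above and 10 below, where 78.8% of all genes had such groups (39.9% above, 38.9% below). With a variance trend and robust moderation the shares were closer, at 53.8% of the members (21 genes) and 61.5% of all genes. The share of members called is a description, and its difference from the share of all genes was not tested.

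The members' probes were bright, with a median level of 11.36 against 8.61 over all genes tested. Brightness of a probe is not an amount of transcript. Among the 3033 genes with a mean level of at least 10, 52.7% passed, 27.1% upward, and 13% passed with at least 1.5-fold. Of the 31 members at that level 11 passed, 8 upward and 3 downward. Over the members, the difference between replicate arrays had an SD of 0.12 with TARBP2 and 0.11 with GFP, and the mean difference between groups one of 0.29. All 8 genes that rose were core subunits or accessory subunits of the membrane arm.

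**Figure D1:**
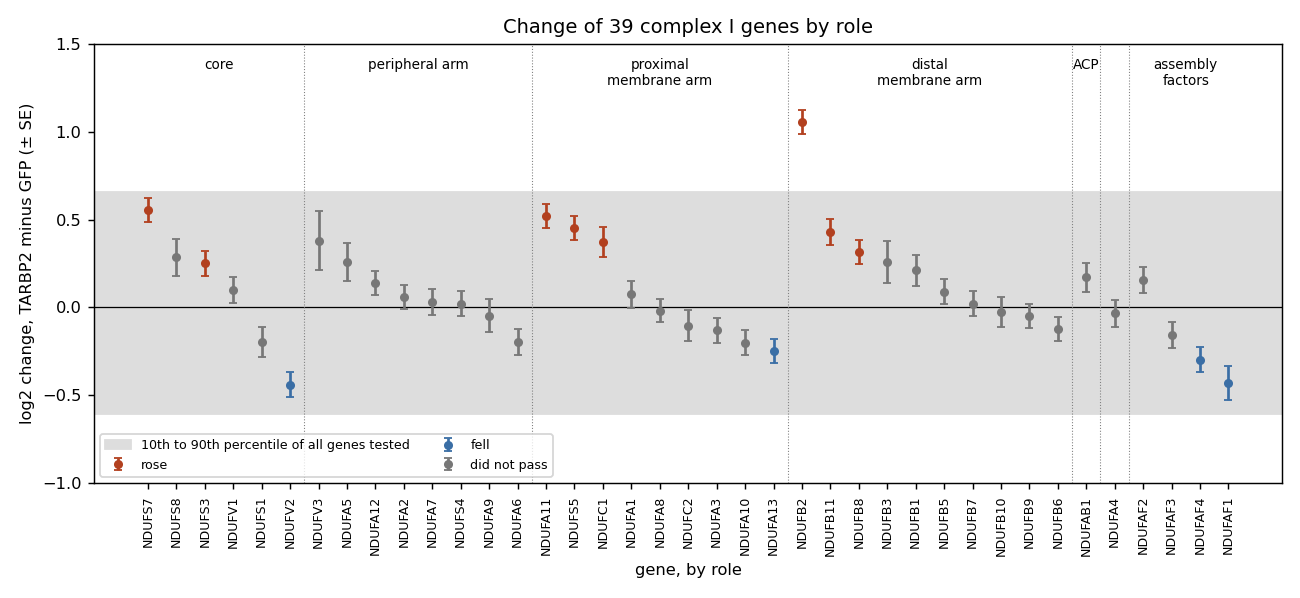
Log2 change of each of the 39 genes tested (TARBP2 minus GFP, n = 2 arrays per group), with bars of 1 SE, ordered by change within each role. Red genes rose, blue genes fell and grey genes did not pass the test. The grey band spans the 10th to 90th percentile of all genes tested, and NDUFB2 at 1.06 is the gene above it.

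Among the 6 core subunits of the peripheral arm, 2 rose (33.3%) and 1 fell (16.7%), where 28.2% of all genes rose and 27.1% fell. Their median log2 change was 0.17. NDUFS7 carries iron-sulphur cluster N2, which hands electrons to ubiquinone. Its levels were 11.34 and 11.40 with TARBP2 and 10.81 and 10.82 with GFP. The groups lay well apart, by a log2 change of 0.55 ± 0.07 (SE, n = 2; limma adjusted p = 0.00204). NDUFS3, a subunit of the ubiquinone-binding module that is assembled early, was at 12.56 and 12.57 against 12.26 and 12.36. Its change of 0.25 ± 0.07 (adjusted p = 0.0327) was among the smallest that passed, and it passed in none of the 4 fits that left out 1 array, where the adjusted p ran from 0.0550 to 0.151.

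NDUFV2, which holds an iron-sulphur cluster beside the NADH-oxidising subunit NDUFV1, fell. Its levels were 11.59 and 11.59 with TARBP2 and 11.99 and 12.08 with GFP. Both TARBP2 arrays were lower than both GFP arrays, by a log2 change of -0.44 ± 0.07 (adjusted p = 0.00481). NDUFV1, its partner in the NADH-binding module, was at 11.46 and 11.52 against 11.44 and 11.35, a change of 0.097 ± 0.07 (adjusted p = 0.307). So 2 subunits of the same module had changes of opposite sign, of which the fall passed the test. NDUFS1, the large iron-sulphur subunit of that module, had a change of -0.20 ± 0.09 (adjusted p = 0.105), and NDUFS8, which carries clusters near ubiquinone, one of 0.28 ± 0.10 (adjusted p = 0.0661).

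None of the 8 tested accessory subunits of the peripheral arm passed the test, where 55.4% of all genes did. Their median log2 change was 0.044. Their changes ran from -0.20 for NDUFA6, a LYR-motif protein that binds the acyl carrier protein, to 0.38 for NDUFV3, whose SE was 0.17. The groups of 5 of these 8 genes did not overlap, 4 upward and 1 downward, where 78.8% of all genes had such groups (39.9% upward, 38.9% downward). NDUFS4, needed for a stable NADH-binding module, was at 12.35 and 12.32 against 12.26 and 12.36, so its groups overlapped. The others were NDUFA5 at 0.26 ± 0.11, NDUFA12 at 0.14 ± 0.07, NDUFA2 at 0.058 ± 0.07, NDUFA7 at 0.030 ± 0.07 and NDUFA9, a short-chain dehydrogenase-like subunit, at -0.048 ± 0.09. NDUFS6, a zinc-binding subunit of the peripheral arm, was not detected on any array, at 4.65 and 4.83 with TARBP2 and 4.66 and 4.67 with GFP.

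In the proximal membrane arm, which joins the peripheral arm, 3 of 9 accessory subunits rose and 1 fell. These are 33.3% and 11.1%, where 28.2% of all genes rose and 27.1% fell. The median log2 change was -0.019. NDUFA11, a membrane subunit that lies where complex I meets complex III in supercomplexes, was at 11.03 and 10.999 with TARBP2 and 10.52 and 10.46 with GFP. The rise was 0.52 ± 0.07 (adjusted p = 0.00253). NDUFS5, a twin cysteine-motif protein of the intermembrane-space face, was at 13.16 and 13.19 against 12.75 and 12.70, a rise of 0.45 ± 0.07 (adjusted p = 0.00377). In both genes the arrays of a group differed far less from each other than the groups did.

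NDUFC1, a small membrane subunit, was at 11.25 and 11.41 with TARBP2 and 10.92 and 10.998 with GFP. Its rise of 0.37 ± 0.09 (adjusted p = 0.0158) no longer passed without TARBP2 replicate 2 (adjusted p = 0.0664) or without GFP replicate 1 (adjusted p = 0.0636), and relative to its chromosomal neighbours the change was -0.035 (adjusted p = 0.757). NDUFA13, also called GRIM-19 and studied in cell death besides its place in complex I, was the proximal subunit that fell, from 10.24 and 10.28 to 10.04 and 9.98. The change was -0.25 ± 0.07 (adjusted p = 0.0281), and the adjusted p ran from 0.0646 to 0.114 in the 4 fits that left out 1 array and was 0.110 relative to its neighbours. The other 5 proximal subunits did not pass. They were NDUFA10 at -0.20 ± 0.07, NDUFA3 at -0.13 ± 0.07, NDUFC2 at -0.10 ± 0.09, NDUFA8 at -0.019 ± 0.07 and NDUFA1 at 0.074 ± 0.08.

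The distal membrane arm, farthest from the peripheral arm, held 3 rises (30%) and no fall among its 10 tested accessory subunits. Of all genes, 28.2% rose and 27.1% fell. The median log2 change of the arm's subunits was 0.15. NDUFB2, a small single-span subunit of this arm, had levels of 12.81 and 12.75 with TARBP2 and 11.73 and 11.71 with GFP. The change was 1.06 ± 0.07 (adjusted p = 0.000272), and no other member changed by as much in this fit. Relative to its neighbours on chromosome 7 its change was 0.42, below that of NDUFA1 (0.44) and smaller than the fall of NDUFV2 (-0.47). NDUFB11, encoded on the X chromosome, was at 11.59 and 11.57 against 11.20 and 11.10 (0.43 ± 0.07, adjusted p = 0.00536), and did not pass relative to its neighbours (0.16, adjusted p = 0.117). NDUFB8, whose protein is often blotted as a sign of assembled complex I, was at 13.26 and 13.29 against 12.94 and 12.97, a rise of 0.31 ± 0.07 (adjusted p = 0.0122). For NDUFB8 the call was lost relative to its neighbours (0.021, adjusted p = 0.818), without TARBP2 replicate 2 (adjusted p = 0.0549) or without GFP replicate 1 (adjusted p = 0.0573).

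The other 7 distal subunits lay between -0.12 and 0.26 and did not pass. NDUFB3 was at 12.87 and 12.79 with TARBP2 and 12.74 and 12.41 with GFP, so that its groups stood apart but the GFP arrays differed by more than the gap. Its change was 0.26 ± 0.12 with 1 probe and 0.23 with another probe of the same gene. Both probes were tied to the gene as the matching pair with the closest log ratios, so their likeness is no support. NDUFB1 had a change of 0.21 ± 0.09 at levels near 6, close to background. NDUFB5 (0.090), NDUFB7 (0.021), NDUFB10 (-0.025), NDUFB9 (-0.050), a LYR-motif protein, and NDUFB6 (-0.12) were within 0.15 of no change. NDUFB4 could not be tied to a probe and was not tested, and in the authors' deposited table its log ratio was 0.0044.

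**Figure D2:**
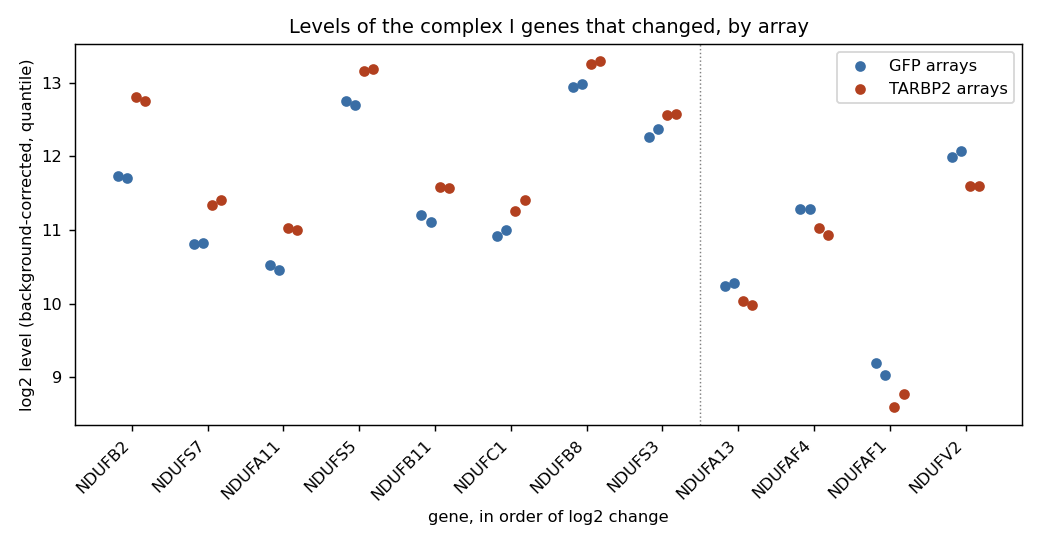
Log2 level of each of the 12 genes that changed, with 1 point per array (blue, GFP; red, TARBP2), in order of log2 change, and a dotted line between the 8 that rose and the 4 that fell. Within every gene both TARBP2 points lie on the same side of both GFP points, and the gap for NDUFB2, from 11.73 to 12.75, is the widest.

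NDUFAB1, the mitochondrial acyl carrier protein, is both a subunit of complex I and a cofactor of lipoate and iron-sulphur cluster synthesis. It was at 12.92 and 13.06 with TARBP2 and 12.86 and 12.79 with GFP (0.17 ± 0.08, adjusted p = 0.127). NDUFA4, now assigned to complex IV and named COXFA4 in RefSeq, was at 13.87 and 13.998 against 13.96 and 13.98. Its groups overlapped, at a change of -0.034 ± 0.08 (adjusted p = 0.726).

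Of the 4 assembly factors in the set, 2 fell (50%) and none rose, where 27.1% of all genes fell and 28.2% rose. Their median log2 change was -0.23. NDUFAF1, part of the complex that builds the membrane arm, was at 8.59 and 8.77 with TARBP2 and 9.19 and 9.04 with GFP. The change was -0.43 ± 0.10 (adjusted p = 0.0148), and it no longer passed without TARBP2 replicate 1 (adjusted p = 0.0705) or without GFP replicate 1 (adjusted p = 0.0580). NDUFAF4, which acts with NDUFAF3 on the ubiquinone-binding module, was at 11.03 and 10.94 against 11.28 and 11.28. This probe had a change of -0.30 ± 0.07 (adjusted p = 0.0181). In a fit over all 22123 detected probes, of which 40.3% passed, it had an adjusted p of 0.0371 and another NDUFAF4 probe a change of -0.20 (adjusted p = 0.130). The call of NDUFAF4 was lost without TARBP2 replicate 2 (adjusted p = 0.0773), without GFP replicate 1 (adjusted p = 0.0664) and without GFP replicate 2 (adjusted p = 0.0659).

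NDUFAF3 itself was at 13.12 and 13.09 against 13.31 and 13.22, with both TARBP2 arrays lower, a change of -0.16 ± 0.07 that did not pass (adjusted p = 0.118). A second NDUFAF3 probe, detected on 2 arrays, had a change of 0.081. NDUFAF2, a late-acting relative of NDUFA12, had both TARBP2 arrays higher, at 11.84 and 11.88 against 11.75 and 11.65 (0.16 ± 0.07, adjusted p = 0.123). Of the 6 members with more than 1 kept probe, NDUFV3, NDUFA10, NDUFB3, NDUFB6 and NDUFAF4 had changes of 1 sign on their probes. For NDUFA10, NDUFB3, NDUFB6 and NDUFAF4 the probes were tied as the matching pair with the closest log ratios. Their like signs follow largely from that choice and are no support.

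In the authors' deposited table, which classes each accession as down-regulated or background, 44 accessions belonged to the 41 members and 4 were classed as down. The share classed as down among all 39747 accessions was not counted, so no background stands beside these 4. The authors' deposited table gave the 4 as NDUFV2 at -0.446, NDUFAF1 at -0.335, NDUFA13 at -0.227 and NDUFAF4 at -0.222, the same 4 genes that fell in the limma fit. Its highest log ratio among members was 1.07, for NDUFB2. The deposited log ratios come from the same arrays and are no second measurement. They also served to tie probes to genes, so like directions in the limma fit follow from that matching.

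Each member was also set beside the 50 tested genes nearest to it, 25 on either side, or fewer at a chromosome end. The median change of these neighbours was positive around 7 of the 8 members that rose. The same share among all genes that rose was not counted, so this is not shown to be particular to complex I. NDUFB2 lies on chromosome 7, where 34 of its 50 neighbours rose and 6 fell and their median log2 change was 0.63. Around NDUFC1 on chromosome 4 the median was 0.41, with 34 neighbours up and 2 down. Around NDUFB8 on chromosome 10 it was 0.29, with 26 up and 4 down. For these 3 genes a large share of the nearby genes on the array moved the same way.

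The neighbours' median was 0.27 around NDUFB11 on the X chromosome, 0.24 around NDUFA11 and 0.18 around NDUFS7, both on chromosome 19, and 0.12 around NDUFS5 on chromosome 1. It was close to 0 around NDUFS3 on chromosome 11 (-0.040), NDUFV2 on chromosome 18 (0.030, 46 neighbours) and NDUFAF4 on chromosome 6 (-0.031). Around NDUFAF1 on chromosome 15 it was -0.12 and around NDUFA13 on chromosome 19 it was -0.092. Across the 39 members, Pearson's r between a gene's change and its neighbours' median was 0.65, and 0.53 without NDUFB2. The points share arrays, and members on the same chromosome can share neighbours, so the correlation is a description. No r over all genes stands beside it.

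**Figure D3:**
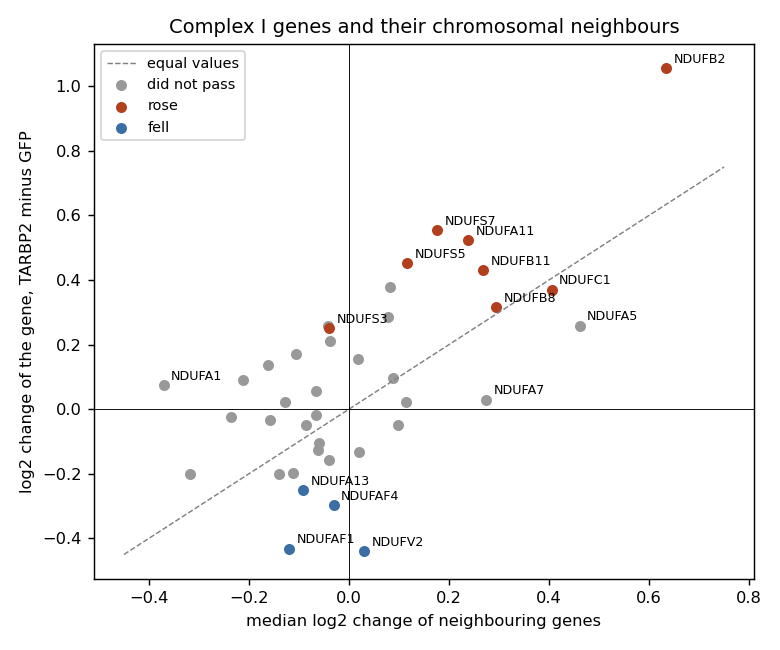
Log2 change of each of the 39 genes (vertical axis, TARBP2 minus GFP) against the median log2 change of its neighbouring genes on the chromosome (horizontal axis), with a dashed line of equal values. NDUFB2 lies at 0.63 and 1.06, NDUFC1 and NDUFB8 lie close to the line, and NDUFV2 lies at 0.030 and -0.44.

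With each neighbours' median subtracted on the TARBP2 arrays, 49.5% of all genes passed, 24.9% upward and 24.7% downward, and 13 of the 39 members, 9 upward and 4 downward. Each median was subtracted as a fixed value. The p-values of this setting, here and above, therefore hold no spread among the neighbours and do not test a difference from them. Of the 12 genes called before, 8 were called again. NDUFB2 kept a change of 0.42 (adjusted p = 0.00562), NDUFS7 of 0.38 (0.00791), NDUFS5 of 0.34 (0.0114), NDUFS3 of 0.29 (0.0229) and NDUFA11 of 0.28 (0.0209). The falls of NDUFV2 (-0.47, adjusted p = 0.00436), NDUFAF1 (-0.31, adjusted p = 0.0456) and NDUFAF4 (-0.27, adjusted p = 0.0286) passed as well. Of these 8 genes, NDUFB2 moved most, from 1.06 to 0.42.

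NDUFC1 (-0.035, adjusted p = 0.757), NDUFB8 (0.021, adjusted p = 0.818), NDUFB11 (0.16, adjusted p = 0.117) and NDUFA13 (-0.16, adjusted p = 0.110) did not pass relative to their neighbours. Conversely 5 members that had not passed did so once the neighbours' median was subtracted. NDUFA1, an X-linked subunit needed for membrane-arm assembly, lies among genes with a median of -0.37, of which 30 fell and 2 rose, and its own change was 0.074. Relative to them its change was 0.44 (adjusted p = 0.00695). The others were NDUFB5 and NDUFA12, both at 0.30, NDUFAB1 at 0.28 and NDUFA7 at -0.24, whose direction turned from 0.030. The cause of these regional differences was not tested.

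Of 13 tested factors that build the enzyme but lie outside the set, 3 rose and 3 fell. That is 23.1% in each direction, where 28.2% of all genes rose and 27.1% fell. Their median log2 change was -0.022. NDUFAF6, a further factor needed for assembly, rose by 0.77 ± 0.07 (adjusted p = 0.000742), from 8.95 and 8.91 to 9.73 and 9.67, among neighbours with a median of 0.40. TMEM126B and ECSIT, which work in a complex with NDUFAF1, both rose by 0.48 (adjusted p = 0.00301 and 0.0118). The 7 factors that did not pass included ACAD9 (-0.14), TIMMDC1 (-0.050) and TMEM186 (-0.022). DMAC1, a factor of distal membrane arm assembly, fell by 0.60 (adjusted p = 0.00225), and NUBPL, which is needed for iron-sulphur clusters of complex I, fell by 0.43 (adjusted p = 0.00492).

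Iron-sulphur cluster synthesis supplies the cofactors of the core subunits. Of its 12 tested genes, 2 rose (16.7%) and 1 fell (8.33%), where 28.2% of all genes rose and 27.1% fell. Their median was 0.097. LYRM4, which stabilises the cysteine desulphurase, fell from 8.99 and 9.16 to 8.53 and 8.41 (-0.60 ± 0.09, adjusted p = 0.00417). NFU1, a late cluster carrier, rose by 0.33 ± 0.07 (adjusted p = 0.0113). BOLA1, the other gene counted as risen, was not above background on either GFP array and passed the detection filter through the TARBP2 arrays alone, so its place in the count rests on that filter. Its mean levels were 5.54 with TARBP2 and 4.81 with GFP, at least 1.36-fold apart against the lowest detected signal. CHCHD4 and AIFM1, of the relay that oxidises twin cysteine-motif proteins such as NDUFS5, had changes of -0.091 and -0.20 and did not pass.

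Of 10 tested regulators of mitochondrial gene expression, 4 rose (40%) and 1 fell (10%), where 28.2% of all genes rose and 27.1% fell. Their median log2 change was 0.24. With neighbours' medians removed, 2 rose and 1 fell, where 24.9% of all genes rose and 24.7% fell. The median was then 0.038. PPARGC1A, the coactivator PGC-1alpha, was at 8.57 and 8.67 with TARBP2 and 6.84 and 6.83 with GFP. The groups were 3.45-fold apart (1.79 ± 0.07, adjusted p = 6.49e-05), a larger change than that of any complex I member. Of the other changed regulators, the mitochondrial RNA polymerase POLRMT rose by 0.38, ESRRA, an oestrogen-related receptor, by 0.33 and PPRC1, a relative of PPARGC1A, by 0.31, while TFB1M, a mitochondrial ribosomal RNA methyltransferase, fell by 0.23. The neighbours' medians were 0.28 around POLRMT, 0.28 around ESRRA, 0.31 around PPRC1 and 0.10 around PPARGC1A.

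Enzymes that feed complex I or bypass it changed in both directions. With neighbours' medians removed, no rise was left among the NADH-producing enzymes. Those that bypass complex I then had 3 rises, as before, and 2 falls instead of 1. The difference between these short lists was not tested. Of 10 tested genes of NADH-producing mitochondrial enzymes, 3 rose and 3 fell (30% each), where 28.2% of all genes rose and 27.1% fell. Their median was 0.21. With neighbours' medians removed, none rose and 2 fell, where 24.9% of all genes rose and 24.7% fell. The median was then -0.13. The shared dehydrogenase subunit DLD rose by 0.68 ± 0.08 (adjusted p = 0.00194), among neighbours with a median of 0.48, and the pyruvate dehydrogenase subunit DLAT by 0.45 ± 0.08 (adjusted p = 0.00602), among neighbours with a median of 0.29. The 2-oxoglutarate dehydrogenase subunits OGDH and DLST fell by 0.79 ± 0.08 (adjusted p = 0.000949) and by 0.55 ± 0.07 (adjusted p = 0.00211). Among 5 tested enzymes other than complexes I and II that pass electrons to ubiquinone, 3 rose (60%) and 1 fell (20%). Of all genes, 28.2% rose and 27.1% fell. Relative to their neighbours 3 of these enzymes rose and 2 fell, where 24.9% of all genes rose and 24.7% fell. DHODH, counted among the rises, was detected on both TARBP2 arrays but on only 1 GFP array. Its mean levels were 5.63 with TARBP2 and 5.09 with GFP, close to background. GPD2, of the glycerol phosphate shuttle, rose by 0.77 ± 0.07 (adjusted p = 0.000826) and ETFDH, of fatty acid oxidation, by 0.70 ± 0.08 (adjusted p = 0.00134), while the sulphide oxidiser SQOR fell by 0.88 ± 0.09 (adjusted p = 0.00134).

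Beside complex I, 18 of 35 tested genes of complexes II to V rose and none fell, which is 51.4% where 28.2% of all genes rose, and their median log2 change was 0.26. For complex I the 33 tested core and accessory subunits without NDUFAB1 had 8 rises and 2 falls, and a median of 0.074. Complex V, the ATP synthase, had 10 rises among 13 genes and a median of 0.34, complex IV 4 of 10 and 0.19, complex III 3 of 8 and 0.17, and complex II 1 of 4 and 0.12. With neighbours' medians removed, 15 of the 35 genes rose and none fell, where 24.9% of all genes rose, and the order of the complexes was not kept. Complex V then had 6 rises and a median of 0.22, complex IV 6 and 0.22, complex III 3 and 0.21, and complex II none and -0.0012. These counts stand side by side, and the difference between the complexes was not tested.

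**Figure D4:**
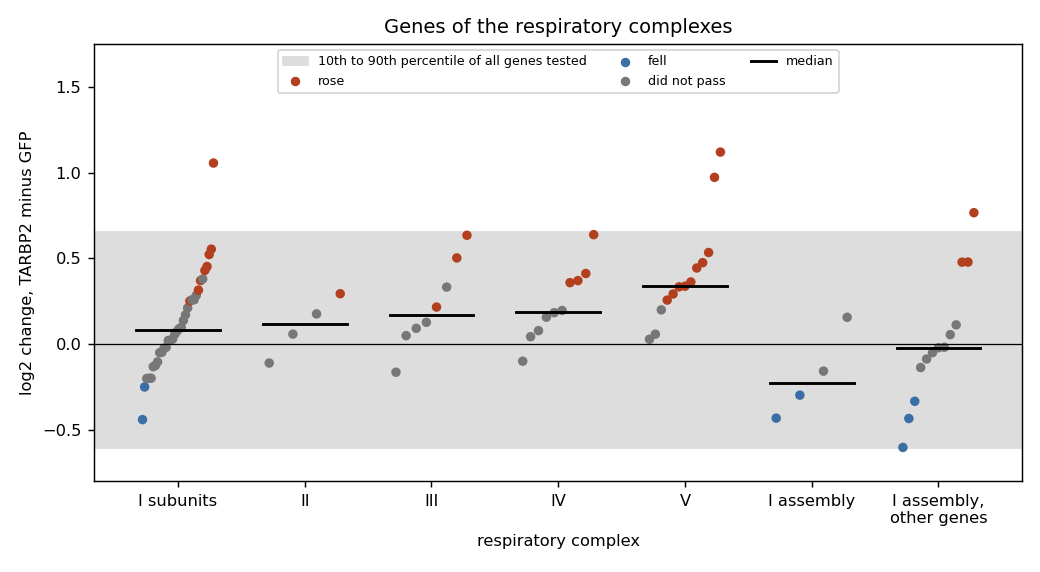
Log2 change (TARBP2 minus GFP) of each tested gene of complex I, including NDUFAB1, of complexes II to V, and of complex I assembly factors inside and outside the set of 41 genes. Points are genes, black lines are medians, and the grey band spans the 10th to 90th percentile of all genes tested. Both complex I and its assembly factors have genes that fell, and complexes II to V have none.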

How the data were processed

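Gene expression of 4 samples was read from Illumina arrays. The deposited non-normalized table holds, per the file headers, a linear intensity and a detection p-value for each of 47323 probes. The authors also deposited quantile-normalized intensities, and a table with a log2 ratio and a class for each of 39747 accessions. The submitters' processing notes name lumi, with no version stated there. No table used here pairs probes with accessions. An accession took the probe for which the authors' deposited log2 ratio equalled, to within 1e-09, the group difference of a fitted inverse hyperbolic sine of the probe's quantile-normalized intensities. This tied 33112 accessions (83.3%), against 10 by chance in shifted tables, and a further 1708 to a pair of probes, against 112 by chance. Of the pairs whose mean matched, the pair with the closest log ratios was taken. Among members NDUFB3, NDUFB6, NDUFA10 and NDUFAF4 were tied through pairs. Symbols and positions are those of RefSeq for GRCh38.p14. Probe sequences were not used, and 20 members have named pseudogenes that a probe might also read.

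Intensities were corrected by normexp with an offset of 16, quantile normalized and taken to log2 (neqc, limma 3.58.1, R 4.3.3). Probes with a detection p-value under 0.05 on at least 2 arrays were kept, which left 22123, and the brightest kept probe stood for a gene. Groups were taken from the sample labels, where the design text calls the control mock-transfected and the sample labels name pCMV-GFP, which was followed. Groups were compared by limma (lmFit, eBayes, 2-sided) with Benjamini-Hochberg adjustment over 10165 genes, leaving 2 residual degrees of freedom beside a prior of 3.30. The number of arrays limits the precision. The procedure was tested on simulated data. The members and gene lists were chosen with earlier results of these data known. All members are accounted for, those that passed with their values on each array, and of each other list the 4 genes with the lowest p could be named. ECSIT and TFB1M, next by p in their lists, were chosen after their values were seen. ACAD9, TIMMDC1 and TMEM186, which did not pass, were also named with their values known. Alternatives covered normalization, background offset, the probe filter and choice, the variance model, neighbours' medians, the replicate number as a block and leaving out each array. Deviations of same-numbered arrays from their group means correlated at 0.0030 across genes, so the values showed no pairing by number. The labels do not state whether same-numbered arrays were handled together.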

Additional observations from a re-analysis of the deposited data

How the results depend on the processing

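Of the 12 calls among members, NDUFB2, NDUFS7, NDUFA11, NDUFS5 and NDUFV2 passed in all 15 settings. The settings reuse the same arrays, and the share of all genes that passed in every setting was not counted. The count of 12 rose to 21 (14 up, 7 down) with a variance trend and robust moderation, 53.8% of members beside 61.5% of all genes, and was 1 with a further limit of 1.5-fold, a limit chosen after seeing the data. It ran from 8 to 10 when 1 array was left out, where the lone array of a group is assumed to vary like the other group and fewer samples enter. Members gained in such fits were NDUFV3 without TARBP2 replicate 2 (adjusted p = 0.0221), NDUFA5 and NDUFB3 without GFP replicate 1 (0.0264 and 0.0233) and NDUFS8 without GFP replicate 2 (0.0478). Over all genes the count of 5627 became 2294 with the 1.5-fold limit and 1597 of 3033 genes at a mean level of at least 10, also chosen after seeing the data. Leaving out 1 array gave 4323 to 4565 genes. The members' median of 0.058 became 0.062 with the authors' quantile-normalized intensities, 0.031 with median scaling, 0.066 without a detection filter, 0.074 with accessions tied to 1 probe and 0.117 with neighbours' medians removed. With 1 array left out it ran from 0.048 to 0.064. With neighbours' medians removed the sign turned in 9 members, to -0.24 for NDUFA7, -0.035 for NDUFC1, -0.20 for NDUFA5, 0.21 for NDUFB10, 0.12 for NDUFA10, 0.12 for NDUFA4, -0.092 for NDUFS4, 0.048 for NDUFA8 and 0.038 for NDUFA9, by the construction of this setting. Of these, NDUFC1 had passed before and NDUFA7 passed after it. With the replicate number as a block, 5432 genes and 12 members (9 up, 3 down) passed, where NDUFS8 was gained (adjusted p = 0.0316) and NDUFA13 lost (adjusted p = 0.05004). Without a detection filter NDUFS3 did not pass (adjusted p = 0.0546), as more genes were tested. Signal close to background limits NDUFS1, NDUFC2, NDUFB1, NDUFA5 and NDUFV3.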
